A study of Mus musculus with 8 samples.

Results

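Transcripts of 9 postsynaptic density genes were followed in the hypothalamus of mice that gained much or little weight. The genes were chosen by name, with earlier results of these data known. They were the membrane-associated scaffolds Dlg4 and Dlg2, the linker Dlgap1, the deeper scaffolds Shank1, Shank3 and Homer1, the kinase subunits Camk2a and Camk2b, and the calmodulin-binding protein Nrgn. On the array, 8 of the 9 genes had a probe naming exactly 1 gene, with 9 probes in all, among 13840 genes named by 14411 such probes. Shank1 had no such probe and no value of it was analysed here.

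Hypothalamus RNA came from male C57BL/6J mice, an inbred strain, so that the high gainers and the low gainers share their genotype. The diets were also shared, with high-fat feeding for 6 weeks, low-fat feeding for 2 weeks and high-fat feeding again for 6 weeks, and the labels give no age. Each group is represented by 1 pool of RNA from 20 mice, measured on 4 arrays. These arrays repeat the measurement of the pool, so every p-value, confidence interval and SD below reflects the spread between arrays and not between mice.

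The arrays were not alike. Low gainer array 2 had an r of 0.239 across 5375 probes with the mean of the other arrays, whereas that r lay between 0.971 and 0.991 for the 7 other arrays. Its values are therefore given apart, and the comparison used high gainer arrays 1 to 4 against low gainer arrays 1, 3 and 4. The number of probes with a value lay between 15173 and 16644 on the high gainer arrays, and was 16379, 13657 and 16873 on low gainer arrays 1, 3 and 4. Of 22 hypothalamic marker genes, 16 had a probe and 13 had a value on all 7 arrays. Oxt, the oxytocin precursor, averaged an intensity of 9.04 in high gainers (n = 4) and 10.9 in low gainers (n = 3). Nkx2-1 and Ghrh, also on that list, had no value on any of the 7 arrays. Among the 11169 probes measured on all 7 arrays, limma called 3 probes higher in high gainers, which is 0.0269%, and 0 lower. The 3 called probes were the pituitary hormone genes Gh, Cga and Prl, with Gh at 11.2-fold in high over low gainers.

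The postsynaptic density is the protein layer under the membrane of an excitatory synapse. Dlg4 encodes PSD-95, which holds glutamate receptors at the membrane, and its relative Dlg2 encodes PSD-93. Dlgap1 joins these proteins to the Shank scaffolds, and Shank proteins bind Homer, which connects to metabotropic glutamate receptors. Camk2a and Camk2b encode subunits of calcium/calmodulin-dependent kinase II, an abundant enzyme of synaptic plasticity in the forebrain. Nrgn encodes neurogranin, which binds calmodulin when calcium is low.

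No member differed between the pools at the adjusted threshold. Of the 9 member probes, 4 had a value on all 7 arrays (Dlg4, Dlg2, Shank3 and Nrgn), compared with 43.9% of all probes naming 1 gene. Of these 4 probes, 0 passed an adjusted p of 0.05 by limma, and 1, Dlg4, had an unadjusted p under 0.05, where 6.48% of all probes tested did. The median log2 difference between high and low gainers over the 4 genes was 0.19, and over all probes tested it was -0.0024. All 4 differences were above 0, as were 49.6% of all probes tested. In a fit that left empty cells out, 14082 probes with values on at least 2 arrays of each group were tested, among them 8 probes of 7 members. Of those 8 probes 0 passed, where 0.0213% of all probes were called higher and 0.0% lower, 2 had an unadjusted p under 0.05, where 5.94% of all probes did, and all 8 differences were above 0, against 49.0% of all probes. In pooled tissue RNA, fewer cells of a type and less RNA per cell cannot be told apart.

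**Figure D1:**
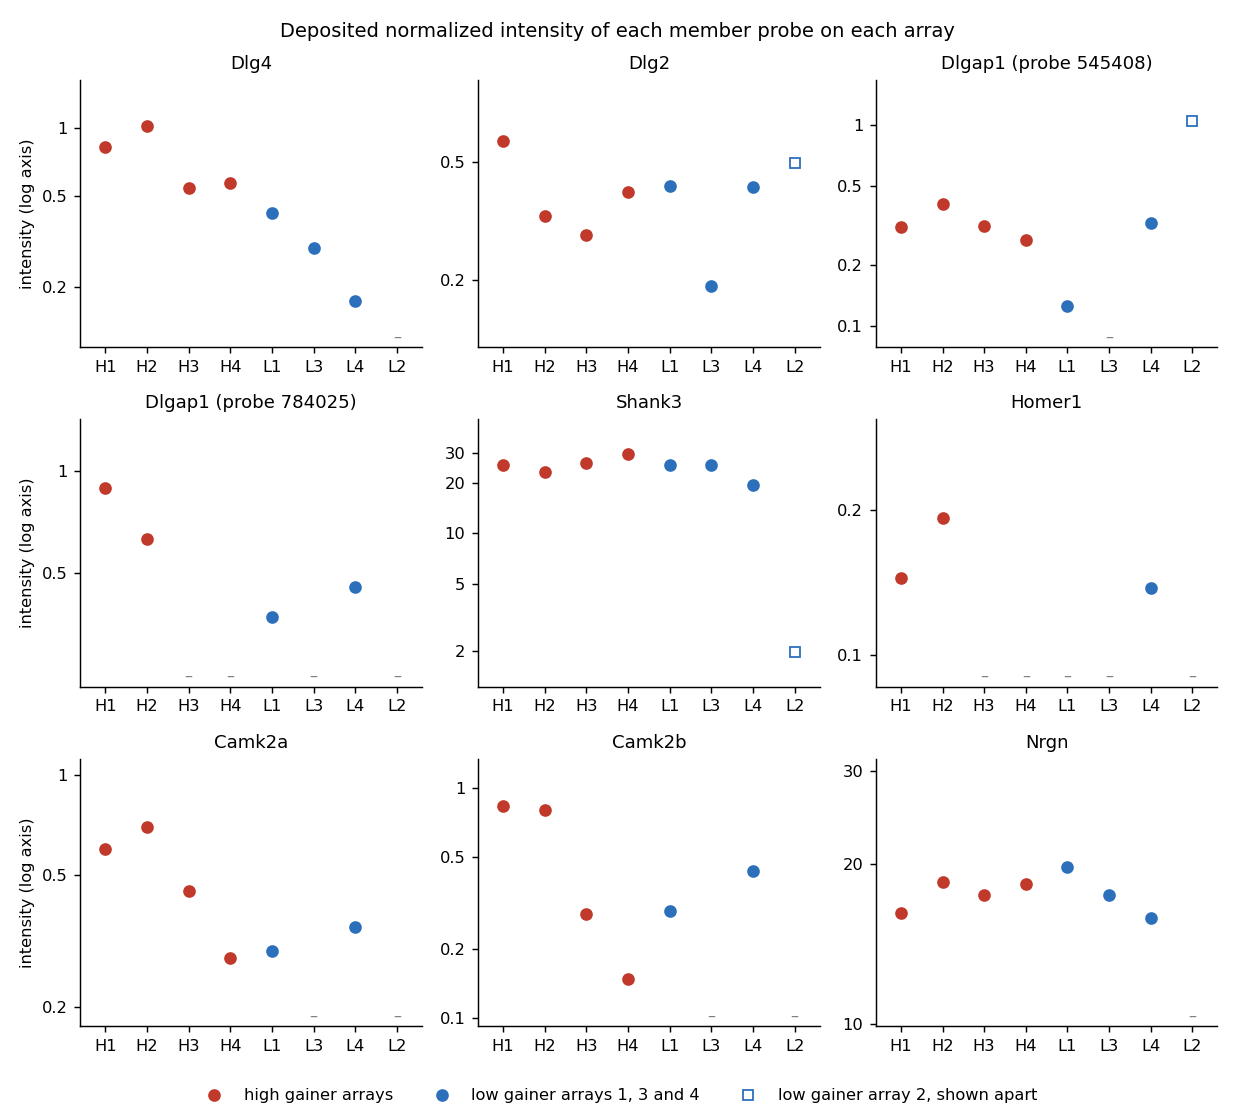
Normalized intensity as deposited (log axis) of the 9 member probes, with high gainer arrays (H1 to H4, red), low gainer arrays 1, 3 and 4 (blue) and low gainer array 2 (open square) along the horizontal axis. A dash marks an array with no value, and Dlg4 is the gene whose 4 high gainer points, from 0.546 to 1.02, all lie above its 3 low gainer points, from 0.173 to 0.422.

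Dlg4 was the member with the widest separation. Its intensity was 0.828, 1.02, 0.546 and 0.574 on high gainer arrays 1 to 4, against 0.422, 0.297 and 0.173 on low gainer arrays 1, 3 and 4. The lowest high gainer array thus lay above the highest low gainer array, and low gainer array 2 had no value. After quantile normalization, 2.07% of all probes tested separated in the same way. Mean intensity was 0.742 ± 0.225 (SD, n = 4) in high gainers and 0.297 ± 0.124 (SD, n = 3) in low gainers. The fold was 2.39 in high over low gainers, with a 95% confidence interval from 1.49 to 3.83. Dlg4 stood at place 16 of 11169 probes by p, but its adjusted p by limma was 0.750. The adjusted p by limma was 0.0431 without low gainer array 1, a setting in which 94 probes were called higher and 77 lower. The log2 difference was 0.90 without low gainer array 4, which had the lowest Dlg4 value.

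The position of Dlg4 within each array differed in the same direction as its intensity. The probe stood at percentile 48.4, 55.7, 36.8 and 44.8 on high gainer arrays 1 to 4 among all probes with a value there. On low gainer arrays 1, 3 and 4 it stood at percentile 35.0, 16.0 and 14.2. Low gainer array 1 was thus within 2 percentiles of high gainer array 3, and on none of the 7 arrays did the probe stand above percentile 55.7.

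Dlg2, the closest relative of Dlg4 among the members, did not separate the pools. It had 0.588, 0.328, 0.283 and 0.395 on the high gainer arrays, against 0.413, 0.191 and 0.411 on low gainer arrays 1, 3 and 4. The ranges overlapped, and both lowest values, on high gainer array 3 and low gainer array 3, lay among the dimmest probes of their arrays at percentile 17.6 and 5.23. The log2 difference was 0.19, with an interval from -0.53 to 0.92 and an adjusted p of 0.945 by limma. That interval still holds a difference of 1.90-fold, so these arrays do not show that Dlg2 was alike in the pools. Without low gainer array 3 the log2 difference was -0.15, with the opposite sign.

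Dlgap1 had 2 probes, each with empty cells. The first, probe 545408, had 0.311, 0.402, 0.315 and 0.269 on the high gainer arrays, against 0.125 and 0.327 on low gainer arrays 1 and 4. Low gainer array 1 was low and low gainer array 4 fell within the high gainer range. The log2 difference in the fit with empty cells left out was 0.67, with an interval from -0.21 to 1.55. The second, probe 784025, had 0.889 and 0.633 on high gainer arrays 1 and 2, against 0.370 and 0.455 on low gainer arrays 1 and 4. The 2 high gainer values lay above the 2 low gainer values, but high gainer arrays 3 and 4 and low gainer array 3 were empty. The share of all probes that separate in this way with so few values was not computed, so the separation is not read as a result. The log2 difference was 0.84, with an interval from 0.05 to 1.63, an unadjusted p of 0.0396 and an adjusted p of 0.828 by limma. In that fit 2.77% of all probes were higher with an unadjusted p under 0.05.

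Shank3, which encodes a scaffold of the deeper layer, was one of the 2 bright members and was close in the pools. Its intensity was 25.5, 23.1, 26.2 and 29.7 on the high gainer arrays, against 25.3, 25.4 and 19.3 on low gainer arrays 1, 3 and 4. Only low gainer array 4 lay below the high gainer range. The mean was 26.1 ± 2.74 (SD, n = 4) in high gainers and 23.3 ± 3.48 (SD, n = 3) in low gainers, and the log2 difference was 0.19 with an interval from -0.13 to 0.51. The adjusted p by limma was 0.858, and the interval holds no difference above 1.42-fold in either direction. On every one of the 7 arrays the probe stood between percentile 96.0 and 97.3.

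Homer1, whose product links Shank to metabotropic glutamate receptors, was at the edge of measurement. It had 0.145 and 0.193 on high gainer arrays 1 and 2, against 0.138 on low gainer array 4, and no value on the other arrays. These values stood at percentile 3.79 and 12.1 on the high gainer arrays and 9.21 on the low gainer array. With 1 low gainer value no test was made.

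**Figure D2:**
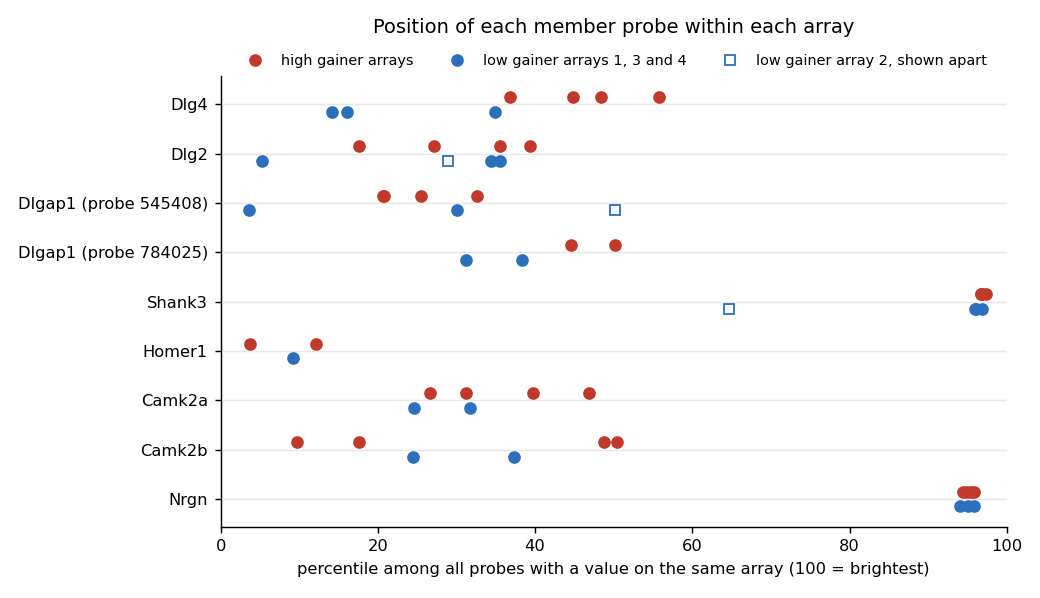
Percentile of each member probe among all probes with a value on the same array, with high gainer arrays in red, low gainer arrays 1, 3 and 4 in blue and low gainer array 2 as an open square. Shank3 and Nrgn stay above percentile 94 on the 7 arrays, Dlg4 runs from 14.2 to 55.7, and Shank3 stands at 64.7 on low gainer array 2.

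The kinase subunits varied widely among the high gainer arrays, and the pools overlapped. Camk2a, the alpha subunit, had 0.597, 0.698, 0.446 and 0.280 on high gainer arrays 1 to 4, against 0.294 and 0.348 on low gainer arrays 1 and 4. The first 3 high gainer arrays lay above both low gainer values, and high gainer array 4 lay below them. Mean intensity was 0.505 in high gainers (n = 4) and 0.321 in low gainers (n = 2), a fold of 1.45 in the fit with empty cells left out. The log2 difference was 0.53, with an interval from -0.25 to 1.32 and an adjusted p of 0.893 by limma.

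Camk2b, the beta subunit, which binds actin, had 0.839, 0.804, 0.283 and 0.148 on high gainer arrays 1 to 4, against 0.292 and 0.438 on low gainer arrays 1 and 4. High gainer arrays 1 and 2 were high and arrays 3 and 4 were below both low gainer values, although all 4 arrays carried the same RNA pool. In the deposited values the brightest high gainer array was 5.68 times the dimmest. After quantile normalization, the median of this ratio was 1.40 over the 11169 probes measured on all 7 arrays. Camk2b was not among those probes, and they cover all levels of brightness. The log2 difference was 0.17 with an interval from -1.05 to 1.38, and its sign turned without high gainer array 1, at -0.17, or array 2, at -0.12. For both subunits low gainer arrays 2 and 3 were empty, and array 3 was also the one of the 7 arrays with the fewest values.

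Nrgn varied least among the high gainer arrays, with the brightest at 1.14 times the dimmest, and did not separate the pools. Neurogranin had an intensity of 16.2, 18.5, 17.5 and 18.3 on the high gainer arrays, against 19.7, 17.5 and 15.8 on low gainer arrays 1, 3 and 4. The high gainer arrays all lay within the low gainer range. The mean was 17.6 ± 1.06 (SD, n = 4) in high gainers and 17.7 ± 1.96 (SD, n = 3) in low gainers, and the log2 difference was 0.01 with an interval from -0.31 to 0.33. Its adjusted p by limma was 0.994, and a difference above 1.26-fold in either direction lies outside the interval. The probe stood between percentile 94.1 and 95.8 on the 7 arrays.

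Low gainer array 2 did not follow these levels. Whether its values are listed beside the right probes was not tested, so they are given as listed and not read as levels of these genes. Shank3 was at 1.95 on it, and Nrgn, Dlg4, Camk2a and Camk2b had no value. Dlgap1 probe 545408 was at 1.06, above all 6 values of that probe on the 7 other arrays, and Dlg2 was at 0.495, inside the range of the others. On this array 42.5% of all probes naming 1 gene had a value. With all 8 arrays Shank3 was at 0.94 on the log2 scale, an adjusted p of 0.717 by limma, and Dlg2 was at -0.13.

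The close relatives of the members did not separate the pools either. Of 13 such genes 9 had a probe and 7 were tested, 5 with a difference above 0, and 0 passed by limma in either direction. Their median log2 difference was 0.11. Camk2g, the gamma subunit of the kinase, had 29.6, 34.4, 39.4 and 33.1 on the high gainer arrays, against 35.8, 24.6 and 22.3 on low gainer arrays 1, 3 and 4. Its log2 difference was 0.35 with an interval from -0.03 to 0.72 and an adjusted p of 0.766 by limma. The delta subunit gene Camk2d was at 3.53 in high gainers and 3.15 in low gainers on average, with a log2 difference of 0.17. Unlike the alpha and beta probes, the probes of both of these subunits had a value on all 7 arrays. Dlgap2, a relative of Dlgap1, had a log2 difference of 0.27, and Pcp4, which like neurogranin binds calmodulin, had -0.16. Dlg3, another member of the PSD-95 family, was at 17.5 in high gainers and 16.3 in low gainers, with a log2 difference of 0.11.

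Among other genes of the excitatory postsynaptic density none passed the test. Of 38 genes 25 had a probe and 15 were tested, 9 of them above 0 and 6 below, and 0 passed by limma in either direction. The median log2 difference was 0.04, and it was -0.03 without high gainer array 2, -0.02 without low gainer array 1 and -0.04 without low gainer array 3. Kalrn, which encodes kalirin, a protein of dendritic spines, had 5.26, 4.53, 5.89 and 5.51 on the high gainer arrays, against 4.81, 3.62 and 2.45 on low gainer arrays 1, 3 and 4. High gainer array 2 lay below low gainer array 1, and the other high gainer arrays lay above all 3. Its log2 difference was 0.63 with an interval from 0.16 to 1.11, and the adjusted p by limma was 0.750. Among glutamate receptor subunits the log2 difference was -0.39 for Grin2b, an NMDA receptor subunit, and -0.20 and 0.25 for the AMPA receptor subunits Gria2 and Gria1. The interval of each included 0. Grin2b was dim, with a mean of 0.271 in high gainers and 0.334 in low gainers. The Gria1 difference is that of its brighter probe. Its other probe had 3.995, 3.313, 2.494 and 3.084 on the high gainer arrays, against 2.509, 2.968 and 4.513 on low gainer arrays 1, 3 and 4.

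**Figure D3:**
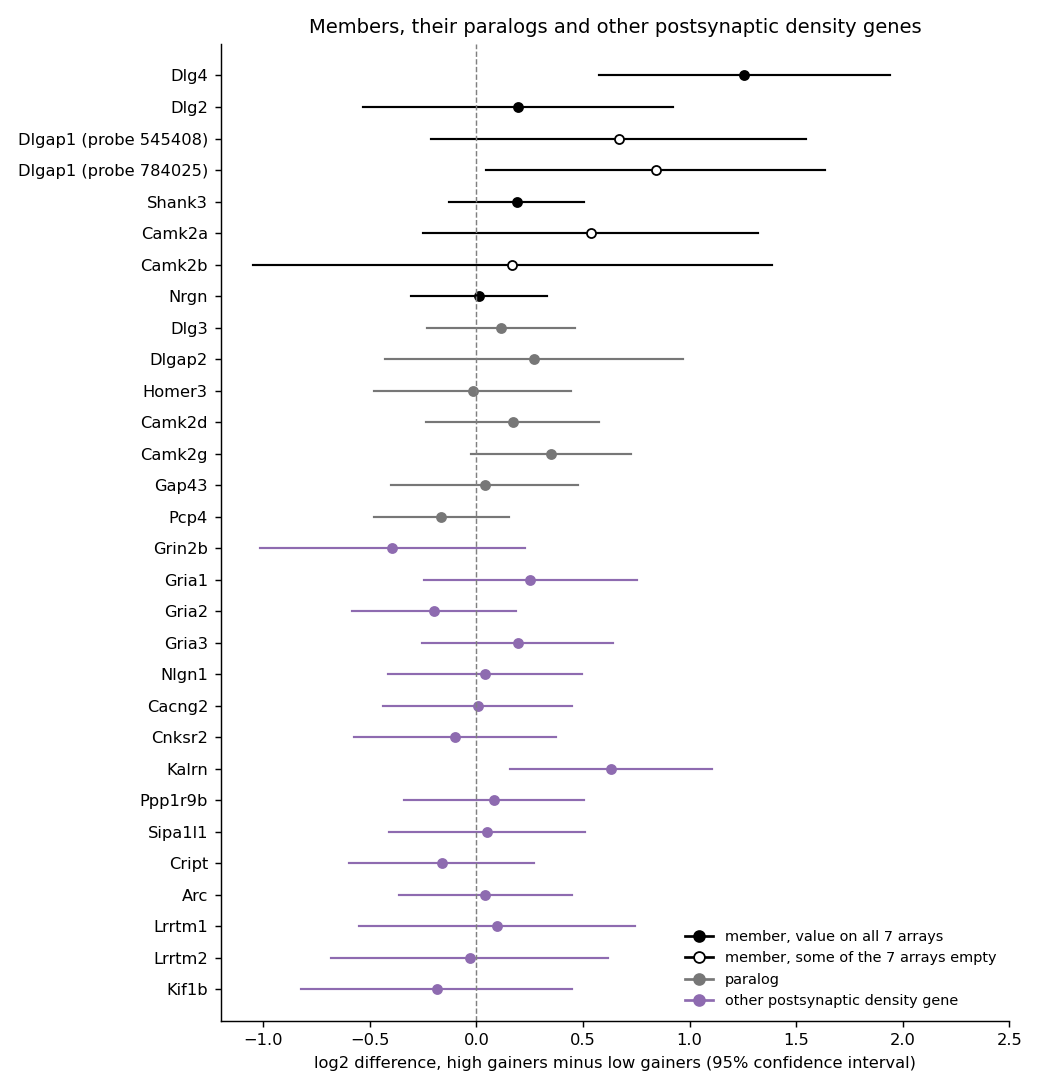
Log2 difference of high minus low gainers with its 95% confidence interval for 8 member probes (black, open where some of the 7 arrays were empty), 7 relatives (grey) and 15 other postsynaptic density genes (purple). Dlg4 lies at 1.26 and Kalrn at 0.63, while the intervals of Shank3 and Nrgn include 0 and stay below 0.51.

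Calmodulin and its partner enzymes did not pass the test either. Of 24 genes 16 had a probe and 14 were tested, 10 above 0, and 0 passed by limma, with a median log2 difference of 0.07. The regulatory subunit of calcineurin, Ppp3r1, had the smallest p with a log2 difference of 0.43 and an interval from -0.05 to 0.91. The phosphatase subunits Ppp1cc and Ppp1ca had 0.39 and 0.36. At inhibitory synapses 8 of 13 genes were tested, 5 above 0, and 0 passed, with a median log2 difference of 0.10, which was -0.09 without low gainer array 1. Nlgn2, the neuroligin of inhibitory synapses, had a log2 difference of 0.25, and Glra1, a glycine receptor subunit, had 0.41. Gabrb1, a GABA receptor subunit, went the other way at -0.28, and 3 of the 8 genes were below 0.

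On the presynaptic side 11 of 18 genes were tested, 8 above 0 and 0 passing by limma, with a median log2 difference of 0.06, which was -0.02 without high gainer array 1. Vamp2, a synaptic vesicle protein, stood apart within that list. Its brighter probe had 3.43, 4.81, 2.90 and 2.92 on the high gainer arrays, against 1.94, 0.788 and 2.57 on low gainer arrays 1, 3 and 4. The pools did not overlap, the log2 difference was 1.11 with an interval from 0.46 to 1.76, and the adjusted p by limma was 0.750. On its other probe the log2 difference was 0.75, and high gainer array 4, at 1.59, lay below low gainer array 4, at 1.78. Stx1a, the syntaxin that pairs with Vamp2, had a log2 difference of 0.23, while Rab3a, on the same list, had -0.26.

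Genes whose pattern over arrays was most like that of Dlg4 were Fcho1, Ppp1r37 and Ppp2r5d, with Pearson r of 0.956, 0.947 and 0.941 over 7 arrays. Their own log2 differences were 0.28, 0.31 and 0.49. For Camk2a, over the 6 arrays with a value, the closest were Rraga, Ssbp4 and the dimmer Vamp2 probe, with r of 0.979, 0.976 and 0.974. Of 6331 probes compared with Dlg4, 16 had an r above 0.9, and of 6332 compared with Camk2a, 28 did. How many unrelated probes would reach such an r over 7 or 6 arrays was not computed. The likeness is thus a description only and not read as shared regulation.

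Of the 13 tested hypothalamic markers 3 had a difference above 0 and 10 below, with a median log2 difference of -0.10, and 0 passed by limma. Npy, the neuropeptide Y gene, had a log2 difference of -0.58 and Hcrt, the orexin precursor gene, had -0.50. Hap1, which encodes a protein abundant in hypothalamic neurons, had 0.42. The unadjusted p by limma was 0.0296 for Npy, 0.0312 for Hcrt and 0.0158 for Hap1, and the adjusted p was 0.750 or higher for all 3.

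Markers of neighbouring regions and of other cells were read beside these values, since several members are abundant in striatum and cortex. All 6 tested striatum markers of 10 had a difference above 0, with a median log2 difference of 0.34. The summed intensity of these 6 genes lay between 35.1 and 42.8 on high gainer arrays, and between 29.1 and 35.4 on low gainer arrays 1, 3 and 4. Pde10a, a phosphodiesterase of striatal neurons, had a log2 difference of 1.04, and Gng7, a striatal G protein subunit, had 0.36. Neither passed, at an adjusted p by limma of 0.750 and 0.756. Gng7 made up the largest part of the summed intensity, with a mean of 22.05 in high gainers and 17.5 in low gainers. Cortex and hippocampus markers had 5 of 14 tested, 4 above 0, and a sum of 8.68 to 10.03 on high gainer arrays, against 7.32 to 9.35 on low gainer arrays 1, 3 and 4. Within them Neurod6, a transcription factor of cortical excitatory neurons, was at 0.775 in high gainers and 1.22 in low gainers, a log2 difference of -0.67 with an adjusted p of 0.750 by limma. Emx2 had no value on any of the 7 arrays.

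Myelin genes did not pass the test. All 6 tested oligodendrocyte markers of 10 were above 0 and 0 passed by limma, with a median log2 difference of 0.40. Their sum lay between 47.5 and 75.8 on high gainer arrays, against 12.7 to 41.7 on low gainer arrays 1, 3 and 4. This sum was mostly the Mbp probe, with a mean of 50.2 in high gainers and 26.4 in low gainers, so it mainly restates that probe. Mag, myelin-associated glycoprotein, was at 1.36 and Mbp, myelin basic protein, at 1.15 on the log2 scale, each with an adjusted p of 0.750 by limma, while Mog, Olig2 and Cldn11 were at 0.11, 0.25 and 0.28. The median of the list was 0.15 without low gainer array 3, the lowest array for these genes. Pan-neuronal markers had 6 of 10 tested, 2 above 0, with a median of -0.06 (0.04 without low gainer array 4) and a sum of 133.7 to 166.7 on high gainer arrays, against 152.5 to 166.9 on low gainer arrays 1, 3 and 4. For pituitary markers 5 of 15 were tested, all above 0 and 3 of them called, with a median log2 difference of 2.67. Cga was at 7.42-fold and Prl at 6.35-fold in high over low gainers. Prl missed the threshold when high gainer array 2 was left out, with limma giving an adjusted p of 0.0610. Chga and Chgb, which are bright and make up most of the summed intensity, were at 1.31-fold and 1.12-fold. The list had a sum of 81.4 to 90.8 on high gainer arrays, against 53.6 to 74.6 on low gainer arrays 1, 3 and 4. That sum mainly restates Chga and Chgb, while Pitx1 and Ghrhr had no value on the 7 arrays. The median log2 difference was 0.24 over 3 tested thalamus markers of 8, but -0.25 without low gainer array 3 and 0.77 without low gainer array 4. It was 0.05 over 4 tested astrocyte markers of 8, and -0.08 without low gainer array 1. The part of these cells and regions in the Dlg4 difference was not tested.

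**Figure D4:**
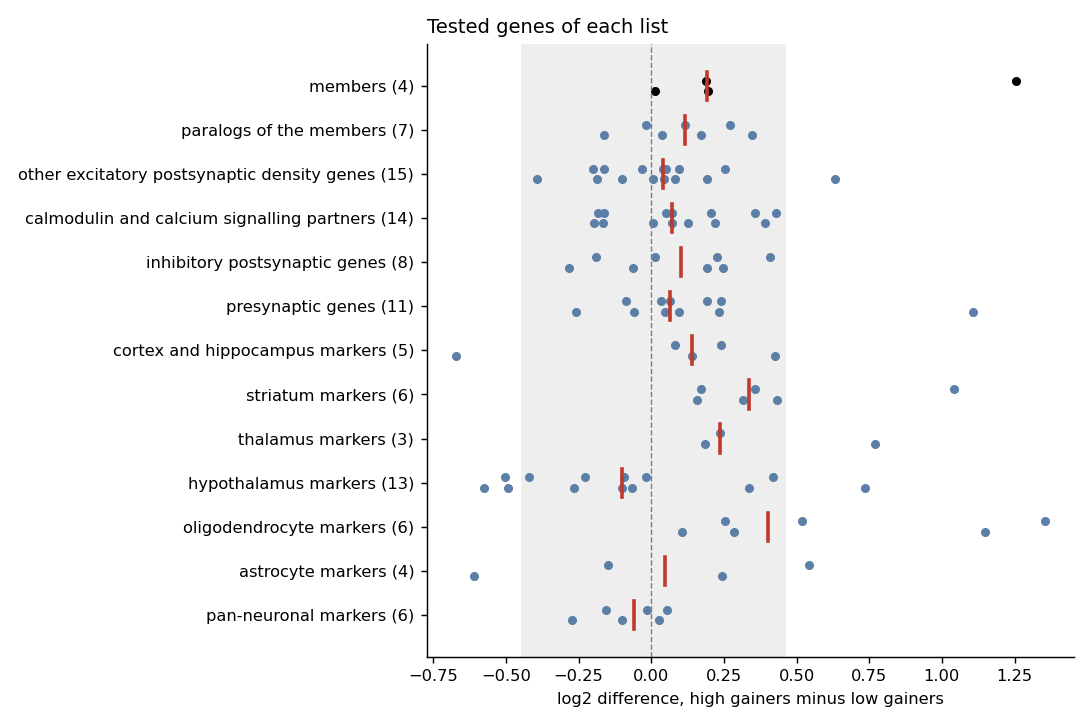
Log2 difference of high minus low gainers for the tested genes of each list except the pituitary markers, which are not drawn. Each gene is 1 point, the list median is a red bar and the number of tested genes is in parentheses. The range from the 5th to the 95th percentile of all probes is shaded (-0.44 to 0.46). Dlg4 at 1.26 and Vamp2 at 1.11 lie outside the shaded range, as do genes of other lists, among them Mag at 1.36, Pde10a at 1.04 and Neurod6 at -0.67. The medians of the synaptic lists lie between 0.04 and 0.19 with all 7 arrays.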

How the data were processed

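Groups were taken from the sample titles. Per the labels and the methods, the authors labelled cRNA of each pool with digoxigenin, hybridised it to 1-colour Applied Biosystems mouse arrays read by chemiluminescence, and quantile-normalized the signals. The deposited values are intensities on a linear scale, with empty cells on every array. The methods call a feature detected above a minimum signal over noise and below a maximum quality flag, but whether that rule emptied the cells is not given in the sources used here. The arrays did not share 1 distribution, so log2 intensities were quantile-normalized again over the 11169 probes measured on all 7 arrays. Differences were fitted in R version 4.3.3 with limma version 3.58.1 (eBayes with a trended prior), two-sided, with Benjamini-Hochberg adjustment over all probes and a threshold of 0.05. It was tested on simulated data. Figures were drawn with matplotlib version 3.10.9.

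Of the 33012 probes, 14411 named 1 gene, 247 named several and 18354 were unnamed in the platform annotation. Of the probes with 1 gene, 14402 matched RefSeq of assembly GRCm38.p6 by identifier. For a list, the brightest tested probe stood for a gene. Named genes were all members, up to 4 genes of each list with the smallest p, the 3 genes most like Dlg4 (the member of smallest p) and the 3 most like Camk2a, and marker genes by value where they define a tissue or move with a result. Dlg3, Mog, Cldn11 and Chgb were chosen after their values were seen. The members and lists were chosen with earlier results of these data known. Alternatives were other normalizations, filters and array sets, and a pseudocount of 0.186 (the 10th percentile of all values). Further ones were no trend, array weights, the replicate number as a block and a t-test, where the methods name ANOVA. The numbers of arrays limit the precision.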

Additional observations from a re-analysis of the deposited data

Results flagged for a closer look

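In each set of 4 arrays of a pool, the gap from the highest or lowest value to its neighbour was divided by the range of the set and compared with Dixon's critical value at 95%, which chance passes in about 1 in 20 sets. Of 65 sets, 8 passed. Members made up 9 of the 65 sets, 7 in high gainers and 2 in low gainers (Shank3 and Dlg2), and 0 passed. Shank3 nevertheless had 1.95 on low gainer array 2, against 19.3 to 25.4 on the other low gainer arrays. Low gainer array 2 held 7 of the 8 values, among them its r of 0.239 with the mean of the other arrays, and whether its intensities are listed beside the right probes was not tested. On this array the intensity was 64.0 for Rraga, 5.95 for Fcho1, 90.0 for the brighter Vamp2 probe, 1.11 and 32.01 for the hypothalamic markers Hap1 and Hcrt, and 1.04 for Ssbp4. On high gainer array 2, Ppp1ca had an intensity of 6.72.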

How the results depend on the processing

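Dlg4 kept a positive difference in all 16 alternatives run on it, from 0.87 with the pseudocount to 1.52 without low gainer array 1, and passed in that last one alone. The Dlg4 probe was too dim to be among the brightest 50% or 75% of probes, so those filters did not test it. It was also not tested with low gainer array 2 included, where it had no value. Its lowest intensity, 0.173 on low gainer array 4, lay below the pseudocount of 0.186. Shank3, Camk2a and Dlgap1 probe 784025 also kept their sign in the alternatives run on them. Of low gainer arrays 1, 3 and 4, Camk2a, Camk2b and the Dlgap1 probes had values on 1 and 4 alone. Leaving out either of those arrays was thus not run on them. Dlgap1 probe 784025 was also not run without high gainer array 1 or 2. Nrgn probe 555374 had -0.015 with median centring and -0.001 with the deposited values. Same-numbered arrays did not deviate together (r of -0.199, 0.131 and -0.139 for arrays 1, 3 and 4), so the numbers were not read as pairs. Between arrays of different number, r ran from -0.522 for high gainer array 3 with low gainer array 4 to 0.4475 for high gainer array 3 with low gainer array 1. With the replicate block Nrgn probe 555374 had -0.0287 and Camk2b probe 333453 -0.0002, and 5 probes were called higher and 4 lower. Camk2b was at -0.0282 with array weights.

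The 3 higher calls became 1 with the brightest 50% of probes or with all 8 arrays, and 0 with the t-test after adjustment. At the unadjusted p and fold of the methods, the t-test called 9 higher and 10 lower. It used 7 arrays and not the detection rule of the methods. The 0 lower calls became 1 with median centring or the pseudocount. Of the members, 2 were tested and above 0 with the brightest 50% or 75% of probes. With all 8 arrays only Shank3 and Dlg2 could be tested, 1 of them above 0, and their median was 0.40. Leaving out 1 array at a time gave 2 to 94 probes higher, 0 to 77 lower, 2 to 4 member probes above 0 and a member median of 0.10 to 0.31. The differences then ran from -0.15 to 0.37 for Dlg2, -0.0357 to 0.0932 for Nrgn, -0.17 to 0.64 for Camk2b and -0.0121 to 0.83 for Ppp1cc. With all 8 arrays they were -0.13 for Dlg2, -0.37 for Dlgap1 probe 545408, -0.26 for Dlgap2, -0.33 for Vamp2, -0.0856 for Fcho1, -0.25 for Rraga and -0.0684 for Ssbp4.

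Some list medians turned sign beside those given above. The other excitatory list was at -0.0326 with the replicate block and -0.33 with all 8 arrays, and the inhibitory list was at -0.19 with the brightest 50% of probes. With all 8 arrays cortex and hippocampus markers were at -0.72 and pan-neuronal markers at 0.48. The causes were not tested.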
